A study of Homo sapiens with 6 samples.

Results

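The 29 genes described here carry cholesterol synthesis, its control by the SREBP transcription factors and the movement of sterols in and out of the cell. They were chosen by name, as the rows of the deposited table whose symbol is one of 29 listed symbols. The rule itself uses no measured value, but the list was drawn up with earlier results of these data known, so its share of calls is a description. All 29 were found among 27451 gene rows, and all 29 had a mean of at least 1 TPM (a length-corrected share of a library's transcripts, scaled to 1000000), the level required for testing. MDA-MB-231 cells, an established line from a human breast tumour, were sequenced after exposure to 2 µM of H182 for 2 h (3 libraries) or to the vehicle DMSO (3 libraries). H182 is a compound from a study whose title concerns inhibitors of the transcription factor STAT3. There was 1 cell line, 1 dose and 1 time, and the labels do not say whether the replicates were separate cultures.

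Cells make cholesterol from acetyl-CoA by way of mevalonate, the isoprenoid pyrophosphates, squalene and lanosterol. When sterols in the endoplasmic reticulum are plentiful, the INSIG proteins hold SCAP and the SREBP precursors there. When sterols are scarce, SCAP carries the precursors to the Golgi, where proteases release the active factors, and these then raise transcription of most genes of the pathway, INSIG1 included. Tumour cells commonly rely on this pathway for membranes and for the isoprenoid tails of signalling proteins.

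Of the 29 genes, 9 rose with H182, 2 fell and 18 did not pass the test. Those that rose were INSIG1, HMGCS1, HSD17B7, IDI1, MSMO1, SC5D, CYP51A1, STARD4 and NPC1, with ratios of mean TPM between 1.34 and 6.35. LBR and ACAT2 fell. Calls were made on log2(TPM + 1) with limma and Benjamini-Hochberg adjustment over all 12294 tested genes, at an adjusted p under 0.05, and "rose" and "fell" are used of genes that passed. In the same fit 5.30% of all tested genes rose, 18.7% fell and 24.0% changed in either direction, against 31.0%, 6.90% and 37.9% of the 29. A rise of at least 2-fold (a log2 change of 1 or more) was called in 3 of the 29 and in 1.30% of all tested genes. The TPM ranges of the groups did not overlap in 13 of the 29 (44.8%), a share near the 41.4% of all tested genes.

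TPM is a share of the library, and 3 heat shock genes (HSPA1A, HSPA1B and DNAJB1) held 2.59% to 2.75% of all TPM in H182 libraries, against 0.0482% to 0.0520% in DMSO libraries. The median change of all tested genes was -0.09 on the log2 scale. Each library was therefore also divided by the median ratio of its genes to their geometric means (median-of-ratios scaling), which brought that median to 0.00. With this scaling 11 of the 29 were higher and 2 lower, against 7.91% and 6.79% of all tested genes. The additional ones were MVD (log2 change 0.29, adjusted p = 0.0377 in the limma fit) and MYLIP (0.24, adjusted p = 0.0427). Depth was unknown, because TPM keeps no read counts. Libraries correlated at r = 0.9928 to 0.9942 across genes within groups and at 0.9787 to 0.9806 between groups. VIM, CD44 and AXL, which MDA-MB-231 expresses, were at 390 TPM or more in every library, and the epithelial cadherin gene CDH1 at 0.28 TPM or less. EPCAM, another epithelial gene, was at 12.49 to 14.55 TPM in H182 libraries and 13.75 to 16.15 TPM in DMSO libraries. Markers of blood, endothelial, liver and fibroblast cells summed to 0.19 to 0.91 TPM in H182 libraries and 0.41 to 1.35 TPM in DMSO libraries over 8 genes, and TTR among them was listed at 0 throughout.

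The promoters were compared for motifs of the factors that control this pathway. The stretches below are the 200 bases before the RefSeq start site (GRCh38.p14), for the 3 genes with the largest rises, for MSMO1, which has most CCAAT boxes among the genes that rose, and for FDPS, which did not change detectably. Capitals mark the CCAAT box, the recognition sequence of the factor NF-Y, which acts beside SREBPs at many sterol genes. On the other strand it reads ATTGG.
INSIG1, chr7:155297678-155297877, plus strand: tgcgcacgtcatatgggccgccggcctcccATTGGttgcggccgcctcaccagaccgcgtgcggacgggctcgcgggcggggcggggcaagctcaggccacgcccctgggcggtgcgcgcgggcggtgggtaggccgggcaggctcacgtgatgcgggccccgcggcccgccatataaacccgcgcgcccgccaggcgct
HMGCS1, chr5:43313413-43313612, minus strand: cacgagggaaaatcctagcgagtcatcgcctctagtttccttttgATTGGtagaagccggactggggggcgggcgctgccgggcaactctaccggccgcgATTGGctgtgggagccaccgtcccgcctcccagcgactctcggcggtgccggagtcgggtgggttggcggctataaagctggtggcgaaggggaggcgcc
HSD17B7, chr1:162790502-162790701, plus strand: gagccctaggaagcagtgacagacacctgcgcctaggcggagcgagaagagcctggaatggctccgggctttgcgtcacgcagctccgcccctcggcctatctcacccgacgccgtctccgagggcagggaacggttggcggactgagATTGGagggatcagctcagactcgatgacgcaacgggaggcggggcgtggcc
MSMO1, chr4:165327469-165327668, plus strand: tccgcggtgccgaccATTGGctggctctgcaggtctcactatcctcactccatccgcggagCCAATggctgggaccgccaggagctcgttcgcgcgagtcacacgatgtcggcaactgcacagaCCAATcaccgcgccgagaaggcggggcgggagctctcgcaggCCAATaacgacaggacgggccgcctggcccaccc
FDPS, chr1:155308666-155308865, plus strand: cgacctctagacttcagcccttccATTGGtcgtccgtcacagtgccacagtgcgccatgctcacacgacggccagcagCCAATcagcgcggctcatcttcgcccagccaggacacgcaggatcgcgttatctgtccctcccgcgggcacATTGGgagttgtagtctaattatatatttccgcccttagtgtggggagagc
The printed stretch held 1 box in INSIG1, 2 in HMGCS1, 1 in HSD17B7, 4 in MSMO1 and 3 in FDPS.

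Promoter windows of 300 bases (250 before and 50 after the start) were matched by symbol for 26 of the 29 genes, with none used for FDFT1, SQLE or ACAT2. Where a gene had several windows, the one nearest to its GENCODE 29 start was taken. A CCAAT box on either strand was found in 7 of the 9 genes that rose, in 9 of the 17 others and in 34.6% of 35116 RefSeq windows. More than 1 box was found in 5 of the 9, in 6 of the 17 and in 10.8% of all windows. MVK and NSDHL, with 5 matches each, did not pass the test. In NSDHL the matches at -113 and -110 overlap on opposite strands, so its matches are not all separate sites. CYP51A1 and NPC1, which rose, had none in this window. The GC box GGGCGG, which Sp1 family factors bind, was in 9 of 9, 13 of 17 and 45.0% of all windows, and the E-box CACGTG in 2 of 9, 3 of 17 and 7.26%. CACCCCAC, the core of the classical sterol regulatory element, was in none of the 9, in SREBF2 and ABCA1 among the 17, and in 2.79% of all windows. GAANNTTC, a pair of inverted heat shock element units, was in none of these 26 windows and in 6.77% of all. The 35116 windows were not limited to the 12294 tested genes, and shares among tested genes were not counted. These are matches of letters, counted on both strands, and are not measured binding.

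**Figure D1:**
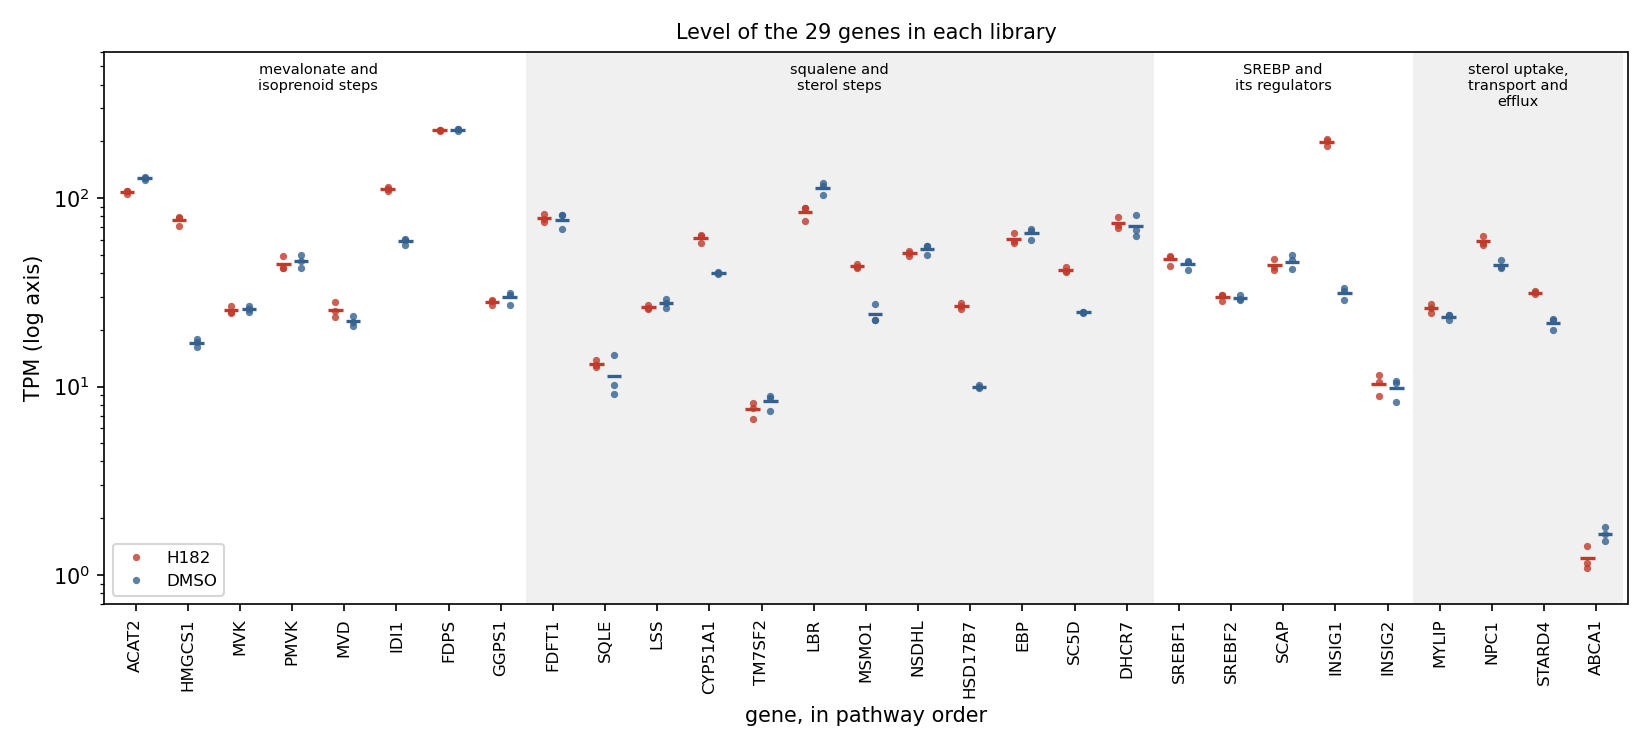
TPM of the 29 genes in each library on a log axis, in pathway order, with H182 points left of DMSO points and a bar at each mean (n = 3 libraries each). INSIG1 and HMGCS1 stand clear of their DMSO values, while FDPS, the most abundant gene in both groups, lies at the same height in both.

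The first steps make mevalonate and turn it into isoprenoid units. ACAT2 is a cytosolic thiolase that joins acetyl-CoA units, HMGCS1 is the synthase of HMG-CoA, MVK and PMVK phosphorylate mevalonate, and MVD decarboxylates the product to isopentenyl pyrophosphate. IDI1 isomerises that unit, FDPS joins units into farnesyl pyrophosphate, and GGPS1 adds another to give geranylgeranyl pyrophosphate. Of these 8 genes, HMGCS1 and IDI1 rose, ACAT2 fell and 5 did not pass, and the median log2 change was -0.02.

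HMGCS1 (ENSG00000112972.14, chromosome 5, 43289395 to 43313512, minus strand, GRCh38) was at 78.19, 70.78 and 79.80 TPM in H182 libraries, against 16.30, 17.86 and 17.14 TPM in DMSO libraries. Every H182 library lay more than 50 TPM above every DMSO library. The ratio of means was 4.46 (log2 change 2.09, SE 0.067, adjusted p = 1.78e-08). In DMSO HMGCS1 ranked 24 of the 29 genes by mean TPM, and in H182 it ranked 7. Relative to FDPS, its TPM was 0.309 to 0.348 in H182 libraries and 0.0720 to 0.0766 in DMSO libraries.

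IDI1 (ENSG00000067064.10, chromosome 10, 1039152 to 1049170, minus strand) was at 108.99, 111.80 and 113.97 TPM in H182 libraries, against 60.07, 60.61 and 56.38 TPM in DMSO libraries. The groups were far apart, with a ratio of means of 1.89 (log2 change 0.91, SE 0.048, adjusted p = 1.02e-06).

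ACAT2 (ENSG00000120437.8, chromosome 6, 159760328 to 159779055, plus strand) was at 105.29, 108.88 and 108.53 TPM in H182 libraries, against 127.54, 130.12 and 124.20 TPM in DMSO libraries. All H182 libraries were lower, at a ratio of 0.845 (log2 change -0.24, SE 0.041, adjusted p = 0.00304). With median-of-ratios scaling the change was -0.14 (adjusted p = 0.0424, and 0.00229 to 0.0424 over 16 alternatives). In GENCODE 29 the 3′ end of ACAT2 overlaps the chaperonin gene TCP1 on the opposite strand by 558 bases, and TCP1 rose (369 ± 3.26 TPM in H182 and 323 ± 13.7 TPM in DMSO, SD, n = 3 each). The kit marks strand, but the strand setting of the counting was not given in the sources used here, and the part of this overlap in either value was not tested.

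The remaining genes of this stage did not pass the test in TPM. FDPS, the most abundant of the 29, averaged 229 ± 0.724 TPM in H182 and 231 ± 3.56 TPM in DMSO (SD, n = 3 each), with a 95% interval of its log2 change from -0.09 to 0.07. MVK averaged 25.4 ± 1.24 TPM in H182 and 25.8 ± 1.03 TPM in DMSO, and PMVK 44.9 ± 3.74 TPM in H182 and 46.3 ± 3.70 TPM in DMSO. The intervals of MVK and PMVK ran from -0.17 to 0.13 and from -0.22 to 0.13. MVD averaged 25.5 ± 2.35 TPM in H182 and 22.2 ± 1.37 TPM in DMSO, and the lower end of its interval, -0.0011, lay just below no change. With median-of-ratios scaling MVD was called higher (log2 change 0.29). GGPS1 averaged 28.1 ± 0.947 TPM in H182 and 29.7 ± 2.27 TPM in DMSO (interval -0.24 to 0.08), and shares 15963 bases with TBCE on the same strand in GENCODE 29. FDPS has several processed pseudogenes in GENCODE 29, whose values were not used here.

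From squalene on, 12 genes were measured, of which CYP51A1, MSMO1, HSD17B7 and SC5D rose, LBR fell and 7 did not pass (median log2 change 0.04). FDFT1 makes squalene, SQLE epoxidises it and LSS closes the rings to lanosterol. CYP51A1 removes the first methyl group of lanosterol, TM7SF2 and LBR reduce the double bond that this leaves, and MSMO1, NSDHL and HSD17B7 together strip the remaining pair of methyl groups. EBP, SC5D and DHCR7 act late, on the double bonds of the ring.

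Among the demethylating enzymes, HSD17B7 (ENSG00000132196.13, chromosome 1, 162790702 to 162812817, plus strand) was at 26.77, 25.77 and 27.75 TPM in H182 libraries, against 9.88, 10.15 and 9.86 TPM in DMSO libraries. MSMO1 (ENSG00000052802.12, chromosome 4, 165327623 to 165343160, plus strand) was at 43.30, 44.52 and 42.50 TPM in H182 libraries, against 22.51, 27.49 and 22.44 TPM in DMSO libraries. NSDHL (ENSG00000147383.10, chromosome X, 152830967 to 152869729, plus strand) was at 52.64, 51.12 and 49.35 TPM in H182 libraries, against 55.65, 55.62 and 49.96 TPM in DMSO libraries. The ranges of HSD17B7 and MSMO1 did not overlap, and those of NSDHL did. HSD17B7 rose 2.69-fold (log2 change 1.34, SE 0.071, adjusted p = 1.04e-06) and MSMO1 1.80-fold (0.83, SE 0.082, adjusted p = 0.000107). NSDHL did not pass (log2 change -0.07, 95% interval -0.21 to 0.06), although its enzyme acts in the same reaction series. HSD17B7 has pseudogene copies in GENCODE 29, which were not used here, so the division of its reads is uncertain.

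CYP51A1 (ENSG00000001630.15, chromosome 7, 92112151 to 92134803, minus strand) was at 58.03, 62.89 and 63.41 TPM in H182 libraries, against 40.26, 40.36 and 39.39 TPM in DMSO libraries. SC5D (ENSG00000109929.9, chromosome 11, 121292453 to 121308694, plus strand) was at 42.82, 40.98 and 40.65 TPM in H182 libraries, against 24.96, 24.55 and 24.85 TPM in DMSO libraries. Neither gene's groups overlapped, and the DMSO values of both lay within 1 TPM of each other. The ratios of means were 1.54 for CYP51A1 (log2 change 0.61, SE 0.054, adjusted p = 5.38e-05) and 1.67 for SC5D (0.72, SE 0.056, adjusted p = 1.93e-05). CYP51A1 overlaps other genes on its own strand and has pseudogenes in GENCODE 29, none of them used here.

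LBR (ENSG00000143815.14, chromosome 1, 225401502 to 225428925, minus strand), a sterol reductase that is also the lamin B receptor of the inner nuclear membrane, was at 88.55, 88.53 and 75.91 TPM in H182 libraries, against 103.72, 115.30 and 120.07 TPM in DMSO libraries. The groups did not overlap, and LBR fell to a ratio of 0.746 (log2 change -0.42, SE 0.074, adjusted p = 0.00355). TM7SF2, the other reductase of this step, was far scarcer, at 7.55 ± 0.750 TPM in H182 and 8.36 ± 0.839 TPM in DMSO, and did not pass (interval -0.38 to 0.12).

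SQLE was at 12.68, 12.99 and 13.86 TPM in H182 libraries, against 14.75, 10.18 and 9.15 TPM in DMSO libraries. DMSO replicate 1 was above every H182 library and the other DMSO libraries were below them. SQLE did not pass (log2 change 0.22, interval -0.11 to 0.56). Without DMSO replicate 1 its change was 0.41 and passed (adjusted p = 0.0237, against 0.0237 to 0.691 over 16 alternatives).

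The other enzymes of this stage overlapped between groups. FDFT1 averaged 78.2 ± 4.13 TPM in H182 and 76.7 ± 7.43 TPM in DMSO, LSS 26.3 ± 0.675 TPM in H182 and 27.7 ± 1.58 TPM in DMSO, and EBP 60.6 ± 3.83 TPM in H182 and 65.2 ± 4.63 TPM in DMSO. DHCR7, the last reductase of one route to cholesterol, averaged 73.4 ± 5.51 TPM in H182 and 70.8 ± 9.73 TPM in DMSO. Their log2 changes lay between -0.10 for EBP and 0.06 for DHCR7.

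**Figure D2:**
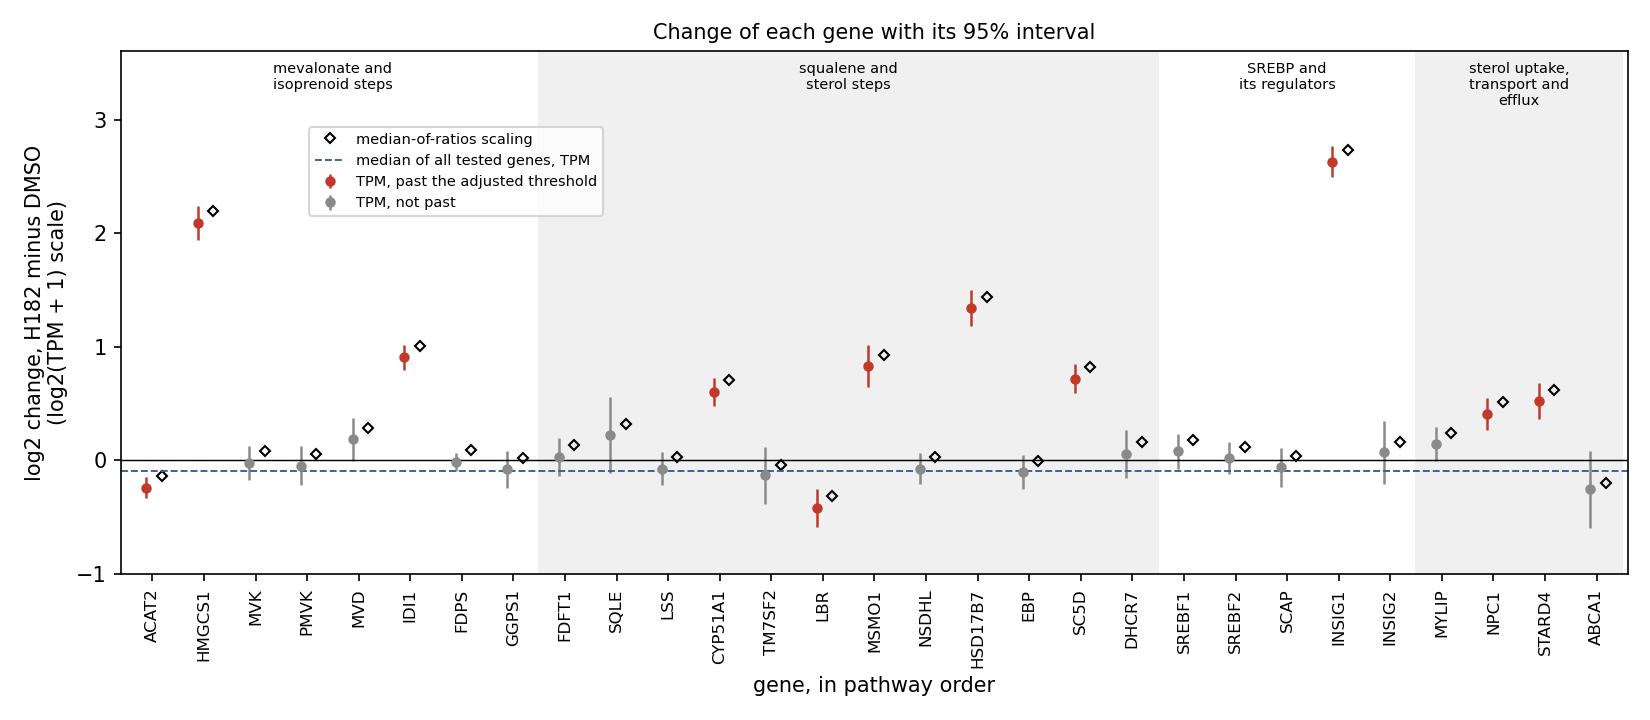
Log2 change (H182 minus DMSO, log2(TPM + 1) scale) of each gene with its 95% interval, in pathway order; filled points are TPM and open diamonds median-of-ratios scaling, and the dashed line is the median of all tested genes in TPM. The 9 genes that rose and the 2 that fell are scattered along the pathway between genes whose intervals cross 0.

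Among the regulators only INSIG1 passed of 5 genes, and none was lower at an unadjusted p under 0.05 by limma, the one tool used. INSIG1 (ENSG00000186480.12, chromosome 7, 155297776 to 155310235, plus strand), the sterol-dependent retention factor of SCAP, was at 189.28, 200.82 and 206.45 TPM in H182 libraries, against 32.00, 28.85 and 33.16 TPM in DMSO libraries. All H182 libraries were more than 5 times as high as any DMSO library. The ratio of means was 6.35 (log2 change 2.63, SE 0.061, adjusted p = 1.72e-09), the largest of the 29 and number 36 by log2 change among the 651 genes that rose. Its rank by mean TPM among the 29 was 2 in H182 and 14 in DMSO.

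INSIG2, the paralog whose protein acts on SCAP in the same way, was at 11.56, 8.95 and 10.61 TPM in H182 libraries, against 8.31, 10.48 and 10.72 TPM in DMSO libraries. The groups overlapped, and INSIG2 did not pass (log2 change 0.07, interval -0.21 to 0.35). In TPM, which is per transcript length, INSIG1 was 16.4 to 22.4 times INSIG2 in H182 libraries and 2.75 to 3.85 times in DMSO libraries.

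The SREBP genes themselves did not pass the test in either scaling. Their log2 changes with median-of-ratios scaling were 0.12 for SREBF2 and 0.18 for SREBF1. SREBF2, whose protein mainly drives cholesterol genes, was at 28.47, 30.67 and 30.71 TPM in H182 libraries, against 28.82, 30.46 and 29.22 TPM in DMSO libraries (interval of the log2 change -0.12 to 0.16). SREBF1, whose protein forms also drive fatty acid genes, was at 43.84, 48.74 and 49.31 TPM in H182 libraries, against 45.99, 46.49 and 41.53 TPM in DMSO libraries (interval -0.07 to 0.23). SCAP averaged 44.1 ± 2.93 TPM in H182 and 46.1 ± 3.94 TPM in DMSO (interval -0.23 to 0.11). All 3 overlapped between groups, and mRNA levels do not measure the cleavage or nuclear entry of the SREBP proteins. In GENCODE 29 SREBF1 overlaps RAI1 on the opposite strand by 1055 bases.

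Of the 4 genes of uptake, transport and efflux, STARD4 and NPC1 rose, MYLIP and ABCA1 did not pass, and the median log2 change was 0.28. The groups did not overlap in any of the 4, a separation also found in 41.4% of all tested genes. STARD4 (ENSG00000164211.12, chromosome 5, 111496033 to 111512590, minus strand), a soluble carrier of cholesterol between membranes, was at 31.72, 30.82 and 32.08 TPM in H182 libraries, against 19.87, 22.69 and 22.53 TPM in DMSO libraries. NPC1 (ENSG00000141458.12, chromosome 18, 23506184 to 23586898, minus strand), which exports cholesterol from lysosomes, was at 58.03, 56.68 and 62.67 TPM in H182 libraries, against 42.48, 47.05 and 43.22 TPM in DMSO libraries. STARD4 rose 1.45-fold (log2 change 0.52, SE 0.071, adjusted p = 0.000815) and NPC1 1.34-fold (0.41, SE 0.062, adjusted p = 0.00150), the smallest rises among the 9. NPC1 shares 25624 bases in GENCODE 29 with a gene on the opposite strand, listed here as C18orf8, which was at 30.6 ± 2.27 TPM in H182 and 28.5 ± 1.43 TPM in DMSO.

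MYLIP, a ubiquitin ligase that marks lipoprotein receptors for degradation and a target of the liver X receptors, was at 26.25, 27.26 and 24.69 TPM in H182 libraries, against 22.49, 24.06 and 23.90 TPM in DMSO libraries. ABCA1, the cholesterol exporter that the same receptors control, was the scarcest of the 29, at 1.09, 1.43 and 1.15 TPM in H182 libraries, against 1.64, 1.80 and 1.51 TPM in DMSO libraries. MYLIP was higher and ABCA1 lower in every H182 library, and neither passed in TPM (log2 change 0.14, interval -0.01 to 0.30, for MYLIP, and -0.25, interval -0.59 to 0.08, for ABCA1). At the level of ABCA1 the log2(TPM + 1) scale understates a change, and its ratio of means was 0.741.

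**Figure D3:**
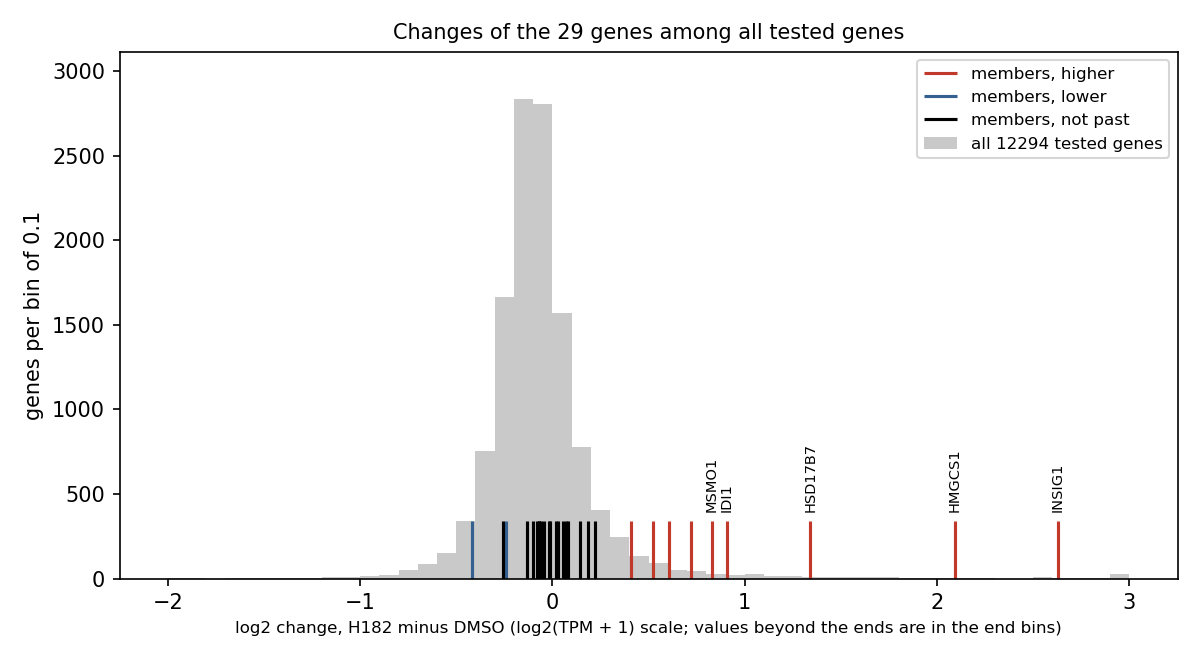
Number of tested genes per bin of log2 change (grey, bins of 0.1, all 12294 genes), with a line for each of the 29 genes coloured by its call. Those that rose spread over the right tail up to INSIG1 at 2.63, and the 18 that did not pass lie between -0.25 and 0.22.

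The 29 genes together took 1646 to 1689 TPM in H182 libraries, against 1324 to 1346 TPM in DMSO libraries. The 9 that rose had DMSO means of 9.96 TPM (HSD17B7) to 59.0 TPM (IDI1). The genes with higher DMSO means than IDI1, namely FDPS, ACAT2, LBR, FDFT1, DHCR7 and EBP, were not among them. The range of the 9 also held genes that did not pass, such as MVK (25.8 TPM) and SREBF1 (44.7 TPM), and ABCA1 lay below it (1.65 TPM). Whether starting level was related to the calls was not tested. Of the 18 genes that did not pass, 16 had a 95% interval within 0.5 of no change on the log2 scale. The exceptions were SQLE and ABCA1.

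Genes around the pathway were examined in 7 lists, of which 88 genes were tested, shown in the plot of calls by list. In all, 3 rose (3.41%), 16 fell (18.2%) and 69 did not pass, shares near those of all tested genes, and the median log2 change was -0.09. With median-of-ratios scaling 7 were higher and 7 lower.

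Of 12 fatty acid genes of the SREBP pathway, 2 rose and 3 fell, and median-of-ratios scaling gave 3 higher while the lower calls were lost. FASN, the fatty acid synthase, was at 190 ± 10.8 TPM in H182 and 131 ± 13.3 TPM in DMSO (log2 change 0.54, SE 0.071, adjusted p = 0.000750). ELOVL5, an elongase of polyunsaturated fatty acids, also rose (0.23, adjusted p = 0.00498), and FADS2, a desaturase, fell in TPM (-0.26, adjusted p = 0.00772), a call lost under median-of-ratios scaling (-0.16).

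Of 16 genes of SREBP processing and sterol sensing, none rose and 2 fell. At an unadjusted p under 0.05, limma gave 0 higher and 4 lower. The share of all tested genes at that level was not counted, and 18.7% of them were lower by adjusted p in TPM. RNF145, a sterol-responsive ubiquitin ligase of the endoplasmic reticulum, fell (-0.39, adjusted p = 0.00668), and ERLIN1, a membrane scaffold protein, fell in TPM (-0.20, adjusted p = 0.0242) but not with median-of-ratios scaling (-0.10), under which 1 gene of the list was higher and 1 lower. Among 7 other SREBP2 targets and NF-Y subunits, 2 fell: RDH11, a retinal reductase (-0.32, adjusted p = 0.00135), and NFYA, the sequence-specific subunit of the CCAAT box factor (-0.31, adjusted p = 0.00531). Median-of-ratios scaling gave 1 higher and 2 lower there. NFYA was at 47.3 ± 0.966 TPM in H182 and 59.1 ± 3.94 TPM in DMSO. Among 8 liver X receptor and efflux genes, RXRA, the common partner of that receptor, fell in TPM (-0.29, adjusted p = 0.0227), a call lost under median-of-ratios scaling (-0.19). That scaling instead gave 1 higher call in the list, NR1H2, which encodes a liver X receptor and was singled out after its values were seen (0.24, adjusted p = 0.00925, against 0.14, adjusted p = 0.0999 in TPM).

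Of 19 genes of sterol transport, storage and lysosomal release, 3 fell. CAV1, the coat protein of caveolae, was at 327 ± 9.77 TPM in H182 and 417 ± 6.69 TPM in DMSO (log2 change -0.35, SE 0.036, adjusted p = 0.000141). GRAMD1C, a carrier of cholesterol from the plasma membrane to the endoplasmic reticulum, was at 2.03 ± 0.211 TPM in H182 and 4.47 ± 0.431 TPM in DMSO (-0.85, adjusted p = 0.00166). LIPA, the lysosomal lipase that frees cholesterol from its esters, fell in TPM (-0.30, adjusted p = 0.00747), again lost under median-of-ratios scaling (-0.20).

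Of 17 genes that use isoprenoids downstream of FDPS and GGPS1, 1 rose and 5 fell, and 1 was higher and 2 lower with median-of-ratios scaling. ICMT, which methylates prenylated proteins, was at 93.9 ± 6.87 TPM in H182 and 123 ± 1.39 TPM in DMSO (-0.39, adjusted p = 0.00115). ZMPSTE24, the protease of prenylated lamin A precursor, fell in TPM (-0.21, adjusted p = 0.0139) but not with median-of-ratios scaling (-0.11). In the list of sterol side steps and oxysterol genes none of 9 passed in the limma fit in either scaling. In TPM 0 were higher and 2 lower at an unadjusted p under 0.05 by limma, again without a count over all tested genes.

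**Figure D4:**
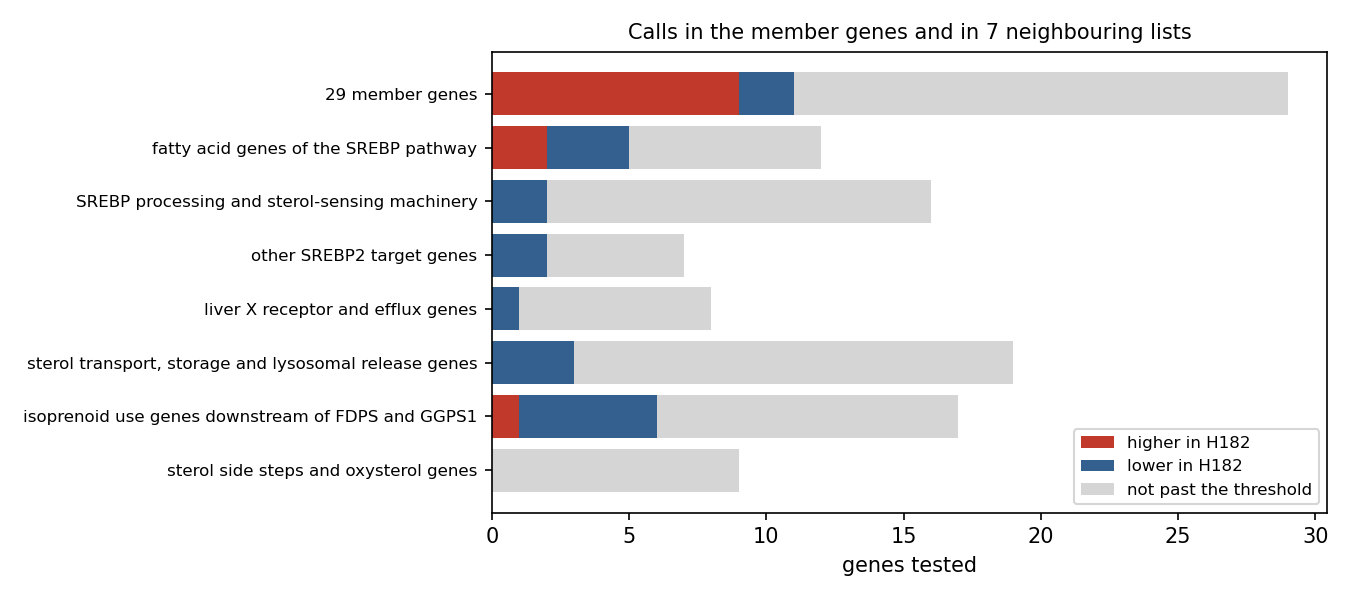
Number of tested genes called higher in H182, lower in H182 or not past the threshold, for the 29 genes and for 7 lists of neighbouring genes (TPM, limma, adjusted p under 0.05). The 29 genes have 9 calls of higher, and the 7 lists together have 3.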

How the data were processed

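Gene expression was measured by poly-A RNA sequencing in 3 H182 and 3 DMSO libraries. The submitters' processing notes list RSEM 1.2.25, STAR 2.5.0 and the build GRCh38, per the labels. The release of the annotation and the strand setting are not given in the sources used here. Values deposited by the authors are TPM per gene and library, scaled to 1000000 and rounded to 2 decimals, so depth is unknown and no counting interval was given. From 27567 rows, 92 spike-in rows at 0 and 24 second X and Y rows were left out. Coordinates and overlaps come from GENCODE 29 (GRCh38), matched by identifier.

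Values were analysed as log2(TPM + 1) for 12294 genes (mean over all libraries 1 TPM or more) with limma 3.58.1 in R 4.3.3 (mean-variance trend, two-sided, Benjamini-Hochberg over all tested genes, threshold 0.05). The test was checked on simulated data with independent noise, equal numbers of rises and falls and no shift in scaling between groups. That check therefore does not cover calls that depend on scaling. P-values reflect only how far these libraries vary, possibly for technical reasons. Motif letters were searched on both strands. An exact permutation test of 3 against 3 cannot go below 0.1. Errors are SDs unless called SE. Every member is named. From each list up to 3 passing genes with the lowest p are named, or 1 where none passed. Some genes that this rule names are not reported here. The members and lists were chosen with earlier results of these data known. Same-numbered libraries did not deviate together (correlations -0.0359 to 0.00245), so replicate numbers were not used as pairs. Figures used matplotlib 3.10.9 in Python 3.11.15.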

Additional observations from a re-analysis of the deposited data

How the results depend on the processing

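The 9 calls of higher and the 2 of lower among the 29 genes held in all 16 alternatives that refit the values (other pseudocounts, filters, scalings, variance models, a replicate block, and each library left out in turn). With a threshold of 0.01 the counts were also 9 and 2. With the replicate block, 9 were higher and 2 lower, and over all genes 625 higher and 2059 lower, against 651 and 2304 without it, so the block changed no call among the 29. Additional calls were MVD and MYLIP with median-of-ratios scaling and SQLE without DMSO replicate 1. Leaving out 1 library gave 9 to 10 genes higher. In 24 refits of a member the sign changed, each time in a gene that passed in neither fit. Of the called members, only ACAT2 moved by over 1.5 times, to -0.14 with median-of-ratios scaling. The cause was not tested.

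Counts over all genes depended on scaling. Lower calls numbered 2304 in TPM, 835 with median-of-ratios scaling, 1261 with quantile normalization, 1497 with totals taken without HSPA1A, HSPA1B and DNAJB1, and 998 at a threshold of 0.01, and 1396 to 2205 with 1 library left out. The share of calls that were lower was 78.0% in TPM, against 46.2% after median-of-ratios scaling. In the 7 lists, 3 higher and 16 lower genes in TPM became 7 and 7 with median-of-ratios scaling and 6 and 8 with quantile normalization, and 9 were lower at a threshold of 0.01. Depth is unknown, so the precision of scarce genes such as ABCA1 cannot be given from reads.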
